A study of Homo sapiens with 8 samples.

Results

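Integrins are the cell surface receptors that tie the cytoskeleton to the extracellular matrix, and laminins are the main glycoproteins of basement membranes and ligands of several integrins. The list comprised 34 genes, 24 encoding integrin chains and 10 encoding laminin chains, taken by gene symbol from a table of 22504 genes. Of these, 33 were found, 24 integrin and 9 laminin genes. LAMA2 was not found under its symbol and so was not analysed here. The table also held 4 integrin or laminin chain genes outside the list, which were not used here. RNA was measured by sequencing of poly(A) transcripts in U2OS, an established human osteosarcoma cell line, in 4 groups of 2 libraries each. The groups were G13R cells after serum stimulation, GFP cells after serum stimulation, G13R cells in normal growth and GFP cells in normal growth. G13R cells overexpressed an actin mutant of that name, and GFP cells expressed green fluorescent protein in its place as the control. The labels do not say which actin gene carries the mutation, whether the cells were clones or pools, how long serum was applied or whether it was first withdrawn.

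An integrin is a pair of an alpha and a beta chain, and the pair sets which ligand is bound. ITGB1 pairs with the largest set of alpha chains and so serves collagen, laminin and fibronectin receptors, whereas ITGAV accepts ITGB1, ITGB3, ITGB5, ITGB6 or ITGB8. A laminin is a trimer of an alpha, a beta and a gamma chain, assembled in the cell before secretion. Osteoblasts and osteosarcoma lines use mainly ITGB1 and ITGAV receptors on collagen, fibronectin and other bone matrix proteins. Integrin tails bind talin and other adaptors that hold actin filaments. The relation to actin is also transcriptional, because free actin monomers hold back MRTF, a cofactor of the serum response factor SRF, and growth factors in serum can act on adhesion genes through SRF, AP-1 and YAP with TEAD.

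The promoters of 4 genes are shown first because these genes had the same called serum change in both kinds of cell, as described further on. They are the 3 with the largest rise (ITGB8, ITGB7 and LAMA5) and the 1 that fell (ITGA5) among genes with a single promoter entry. Each line gives the 250 bases before the RefSeq start of the gene, build GRCh38.p14, 5′ to 3′ on the strand of the gene. The regions are chr7:20330650-20330899 on the plus strand for ITGB8, and on the minus strand chr12:53207252-53207501 for ITGB7, chr20:62367313-62367562 for LAMA5 and chr12:54419267-54419516 for ITGA5. Capitals mark matches, on either strand, to 4 motifs: the SP1 site GGGCGG, which reads CCGCCC on the other strand, the TEAD site GGAATG, the AP-1 site TGANTCA and the CArG box bound by SRF. No match overlapped another in these 4 stretches.
ITGB8: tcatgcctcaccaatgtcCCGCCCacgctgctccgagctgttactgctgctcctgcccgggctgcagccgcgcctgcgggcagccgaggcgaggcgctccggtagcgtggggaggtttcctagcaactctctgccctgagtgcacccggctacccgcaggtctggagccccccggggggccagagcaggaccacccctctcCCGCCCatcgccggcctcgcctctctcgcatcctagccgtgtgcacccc
ITGB7: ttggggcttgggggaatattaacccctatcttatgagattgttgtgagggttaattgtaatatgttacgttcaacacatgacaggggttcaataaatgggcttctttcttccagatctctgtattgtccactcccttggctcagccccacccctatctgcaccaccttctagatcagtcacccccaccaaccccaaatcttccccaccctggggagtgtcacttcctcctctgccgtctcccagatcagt
LAMA5: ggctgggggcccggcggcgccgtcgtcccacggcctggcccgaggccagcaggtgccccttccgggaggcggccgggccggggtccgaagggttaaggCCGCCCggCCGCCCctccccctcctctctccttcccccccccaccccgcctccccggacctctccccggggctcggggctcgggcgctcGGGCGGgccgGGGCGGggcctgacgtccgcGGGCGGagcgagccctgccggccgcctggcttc
ITGA5: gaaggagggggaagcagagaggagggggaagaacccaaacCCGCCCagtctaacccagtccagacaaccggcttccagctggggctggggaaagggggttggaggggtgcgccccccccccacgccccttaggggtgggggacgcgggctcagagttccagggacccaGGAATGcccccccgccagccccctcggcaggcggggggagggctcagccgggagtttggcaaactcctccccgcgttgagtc
ITGB8 held 2 SP1 sites, LAMA5 held 5, ITGA5 held 1 SP1 site and 1 TEAD site, and ITGB7 held no match. The G+C content was 71.2% for ITGB8, 49.6% for ITGB7, 82.8% for LAMA5 and 70% for ITGA5, against a median of 58% over all promoters of that length. Of all 35116 promoter entries cut to the same 250 bases, 42.6% held an SP1 site, 11.9% a TEAD site, 6.57% an AP-1 site and 1.16% a CArG box. RefSeq entries were matched for 24 of the 34 listed genes, and LAMA1, described below, had none. Of the 24 matched genes, 14 held an SP1 site in at least 1 entry, 4 a TEAD site, 2 an AP-1 site and 1 a CArG box. Some of these genes had more than 1 entry, so counts per gene are not on the scale of the shares per entry. The AP-1 sites stood in the entry of LAMA3 and in only 1 of the entries of LAMB3. The CArG box stood in the entry of ITGB6 (CCTTATAAGG). These matches describe the letters of the windows and are not binding sites shown in these cells.

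The libraries held 12065 to 12568 genes at 1 FPKM or more, where FPKM is the number of fragments per kilobase of transcript, scaled to the mapped fragments of the library. As a check of the labels, the beta-actin gene ACTB stood at 8313 ± 514 FPKM in G13R cells after serum, against 2579 ± 50.8 in GFP cells after serum (SD, n = 2 each), and these values may include transcripts of the mutant. Of the bone lineage markers, SPARC, COL1A1, RUNX2 and ALPL exceeded 1 FPKM in each library, while COL1A2, SP7 and IBSP stayed under 1 FPKM. The remaining one, BGLAP, lay between 0.145 and 1.40 FPKM. The 5 endothelial markers summed to at most 1.09 FPKM, and 5 of 7 leukocyte markers stayed under 1 FPKM. Of the 6 epithelial markers, KRT8 and KRT18 were high, between 259 and 580 FPKM, whereas EPCAM lay between 1.63 and 2.88 FPKM, CDH1 between 0.498 and 4.47, KRT5 between 0.349 and 1.34 and KRT14 between 0 and 3.85. Some zeros of this table go with high values elsewhere: 13 genes were listed at 0 in at least 1 library and at 100 FPKM or more in another, and 3 of them were in the fit. No tested member was listed at 0 in any library. On the first principal component the G13R serum libraries lay at 11.8 and 14.5 and the GFP serum libraries at 26.0 and 44.7, so that GFP serum replicate 2 stood apart. The labels do not state whether replicate libraries are from separate cultures, and the p-values then cover only a spread that may be technical.

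Genes were tested if 2 or more libraries held 1 FPKM or more, which kept 12996 genes and 24 of the 33 members, 17 integrin and 7 laminin genes. The other 9 members, ITGB2, ITGB6, LAMA4, ITGA10, LAMA3, ITGA11, ITGAL, ITGA9 and ITGA8, averaged 0.683 FPKM or less over the 8 libraries. ITGAL and ITGA8 were each listed at 0 in 5 libraries. Of the tested members, ITGB7 alone passed the filter through its serum libraries, with 1 normal growth library at 1 FPKM or more.

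The tested members had mean levels between 1.103 FPKM (ITGA1) and 291 FPKM (ITGB1), and since FPKM is scaled to transcript length, levels can be set side by side between genes. ITGA1 overlaps PELO, which averaged 12.3 FPKM, and the share of reads between them was not tested. ITGB1, the common partner chain, was the highest (range 242 to 356 FPKM over the 8 libraries), and 220 genes of the table were higher. LAMB3 followed at a mean of 204 FPKM (163 to 227), ITGB5 at 199 FPKM (146 to 247) and ITGA3, a laminin receptor chain, at 123 FPKM (95.8 to 144.5). The ranges of LAMB3 and ITGB5 over the 8 libraries overlapped, but the order differed between conditions. LAMB3 was higher than ITGB5 in every normal growth library, and ITGB5 was higher than LAMB3 in every serum library. LAMC1, LAMB2, ITGA6, LAMB1, ITGA5, LAMA5 and ITGAV came next, with means of 32.2 to 62.5 FPKM and ranges that overlapped from each to the next.

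Some partner chains had very unequal levels. LAMB3, a beta chain known from the laminin of epithelial anchoring structures, stood at 163 to 227 FPKM, while LAMA3, the alpha chain of the same trimer, reached at most 0.638 FPKM. ITGB4, which pairs with ITGA6 alone, lay between 0.858 and 3.41 FPKM, against 33.5 to 56.6 FPKM for ITGA6. ITGB4 overlaps GALK1, which averaged 17.8 FPKM, and the share of reads between them was not tested. ITGAM and ITGAX, alpha chains of leukocyte receptors whose partner is ITGB2, lay between 1.33 and 5.38 FPKM and between 1.99 and 5.25 FPKM. ITGB2 itself did not exceed 0.886 FPKM in any library. The summed level of the 11 alpha chains ITGA1 to ITGA11, which pair with ITGB1, was 215 to 268.5 FPKM per library, and ITGA3 made up 44.5 to 60.8% of it. ITGAV, which pairs with ITGB1 and with other beta chains, is not in that sum.

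**Figure D1:**
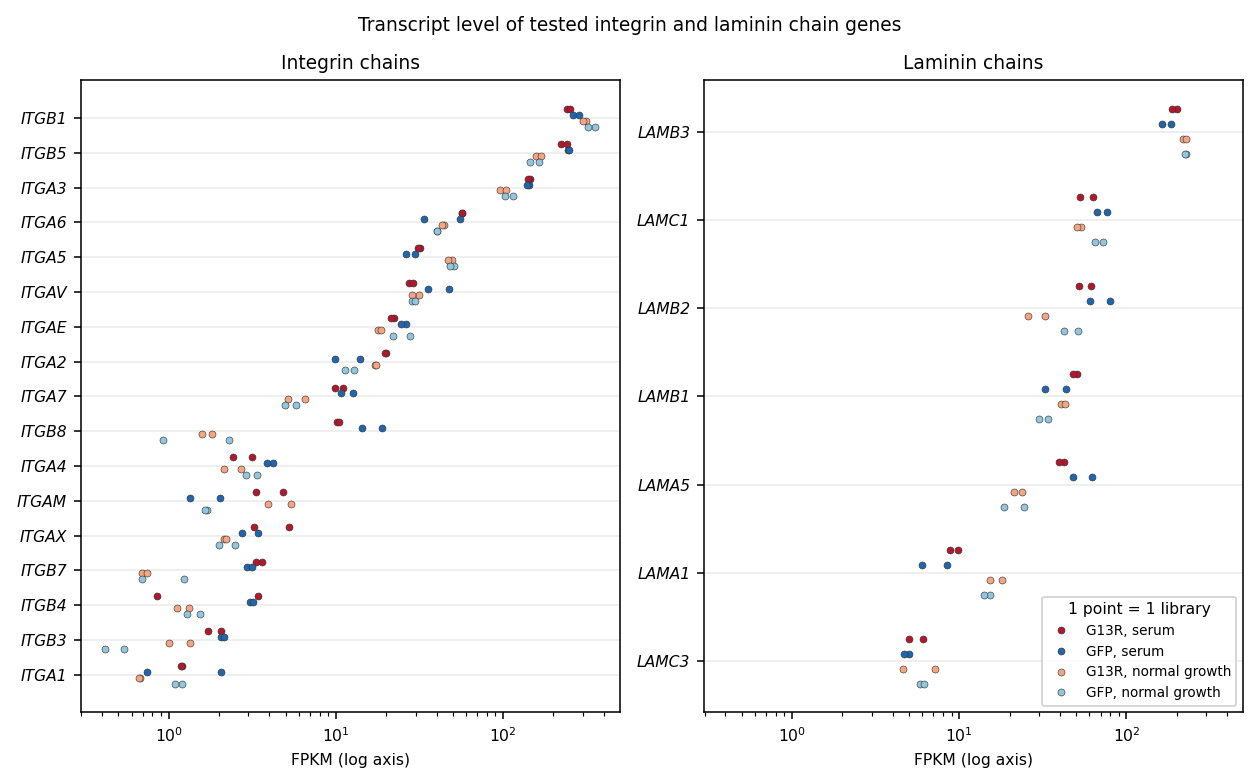
FPKM on a log axis of the 17 tested integrin genes (left) and the 7 tested laminin genes (right), with 1 point per library and colours for the 4 groups. ITGB1, LAMB3, ITGB5 and ITGA3 lie highest, and ITGB8 shows the widest gap between its serum libraries (10.15 to 18.8 FPKM) and its normal growth libraries (0.926 to 2.30 FPKM).

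Serum stimulation was compared with normal growth within each kind of cell, to find which receptor and matrix genes changed with serum. In G13R cells 7 members rose and 3 fell of the 24 tested, and in GFP cells 9 rose and 4 fell. The chains that rose were partners of ITGAV (ITGB8 and ITGB5), the laminin receptor chains ITGA3 and ITGA7, the lymphocyte chain ITGB7 and the laminin chains LAMA5 and LAMB2. The fibronectin receptor chain ITGA5 and the laminin chain LAMA1 fell. ITGB1, the partner of ITGA5 and also of ITGA3 and ITGA7, fell slightly, with calls lost in several alternatives given below. Calls had an adjusted p under 0.05 over all genes tested. In G13R cells 41.7% of the tested members were called, against 12.9% of all genes (8.26% higher and 4.62% lower). In GFP cells 54.2% of the tested members were called, against 30.7% of all genes (14.9% higher and 15.7% lower). The median log2 fold change of the tested members was 0.31 in G13R cells and 0.26 in GFP cells, against 0.04 and 0.01 for all genes. In such bulk RNA, fewer cells with a transcript and less of it per cell cannot be told apart. The sum of the 6 epithelial markers was 696 to 1056 FPKM per library after serum, against 534 to 785 FPKM in normal growth, nearly all of it KRT8 and KRT18. KRT18 rose in both kinds of cell (0.44 ± 0.10 in G13R cells and 0.46 ± 0.10 in GFP cells) and KRT8 in GFP cells (0.32 ± 0.11). CDH1, EPCAM and KRT5 were not called, with CDH1 at -0.84 ± 0.43 in G13R cells and -1.09 ± 0.43 in GFP cells. The part of these markers in the result was not tested.

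Each of the 10 members called in G13R cells had a call of the same sign in GFP cells, which is 76.9% of the 13 called there. Over all genes 1312 were called with the same sign in both, which is 78.3% of the 1675 called in G13R cells and 32.9% of the 3985 called in GFP cells. The 2 responses share no library, but both come from 1 fit with a common error for each gene, so the calls are not independent. The 3 called in GFP cells alone were ITGAV, ITGB3 and LAMB3. In the test of the difference between the responses, 0 members and 0 genes of the table were called, a background of 0%. At an unadjusted p under 0.05 there were 3 of the 24 tested members (ITGAV, ITGB3 and LAMA5) and 1533 of all 12996 genes tested. The only tool run was limma. No member is therefore shown to respond differently in the 2 kinds of cell.

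**Figure D2:**
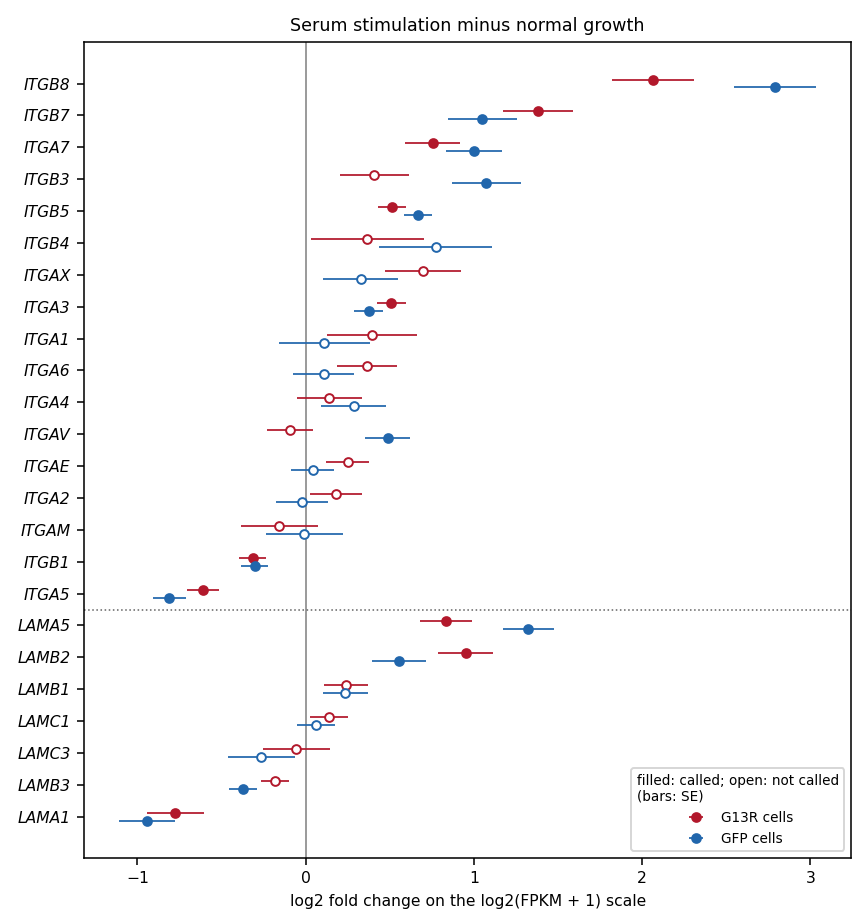
Log2 fold change of serum stimulation over normal growth for the 24 tested members, with integrins above the dotted line and laminins below it, G13R cells in red and GFP cells in blue. Bars are SE, and filled points are called genes. ITGB8 lies farthest to the right in both kinds of cell (2.06 and 2.79), and LAMA1 and ITGA5 lie farthest to the left.

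ITGB8, whose pair with ITGAV releases TGF-beta from its latent complex (chromosome 7, 20370325 to 20450419, build hg19), had the largest serum change of the members. In G13R cells it read 10.15 and 10.45 FPKM after serum, against 1.59 and 1.82 FPKM in normal growth. In GFP cells ITGB8 read 14.4 and 18.8 FPKM after serum, against 0.926 and 2.30 FPKM in normal growth. The serum and normal growth libraries did not overlap in either kind of cell. The log2 fold change, on the log2(FPKM + 1) scale, was 2.06 ± 0.24 in G13R cells (SE, adjusted p = 0.00103) and 2.79 ± 0.24 in GFP cells (adjusted p = 7.88e-05). The difference between the responses was -0.73 ± 0.35 (adjusted p = 0.442).

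The other beta chains that can pair with ITGAV were less uniform. ITGB5, part of a vitronectin receptor (chromosome 3, 124480795 to 124606674), read 223 and 241 FPKM in G13R cells after serum, against 157 and 168 FPKM in normal growth. In GFP cells ITGB5 read 244 and 247 FPKM after serum, against 163 and 146 FPKM in normal growth. All 4 serum libraries lay above all 4 normal growth libraries, with log2 fold changes of 0.51 ± 0.08 (adjusted p = 0.00476) and 0.67 ± 0.08 (adjusted p = 4.80e-04). The call in G13R cells was lost without G13R serum replicate 2 (0.46, adjusted p = 0.0601). ITGB3, the beta chain shared by the vitronectin receptor and the platelet fibrinogen receptor, read 1.71 and 2.05 FPKM in G13R cells after serum, against 1.34 and 1.01 FPKM in normal growth, and did not pass (0.41 ± 0.21, adjusted p = 0.218). In GFP cells ITGB3 read 2.07 and 2.16 FPKM after serum, against 0.545 and 0.417 FPKM in normal growth, and rose (1.07 ± 0.21, adjusted p = 0.00382). Its serum libraries lay close together in both kinds of cell. Its normal growth libraries read higher in G13R cells, a difference that was not called (0.55 ± 0.21, limma adjusted p = 0.25). ITGB3 overlaps EFCAB13, which averaged 1.04 FPKM, and the share of reads between them was not tested. ITGB6 stayed at 0.152 to 1.12 FPKM.

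ITGAV itself, the alpha chain of these pairs (chromosome 2, 187454792 to 187545628), read 27.2 and 29.1 FPKM in G13R cells after serum, against 31.45 and 28.7 FPKM in normal growth, and these overlapped (-0.09 ± 0.13, adjusted p = 0.689). In GFP cells ITGAV read 35.6 and 47.6 FPKM after serum, against 28.35 and 29.8 FPKM in normal growth. It was called higher there (0.49 ± 0.13, adjusted p = 0.0213), and the call was lost in 6 of 19 alternatives. Without GFP serum replicate 2 its log2 fold change was 0.28 (adjusted p = 0.127), without GFP normal replicate 1 it was 0.45 (adjusted p = 0.108) and without GFP normal replicate 2 it was 0.52 (adjusted p = 0.0653). The difference between the responses was -0.58 ± 0.19 (adjusted p = 0.308, and 0.0247 without GFP serum replicate 1). Per library, the summed beta partners ITGB3, ITGB5, ITGB6 and ITGB8 came to 235.5 to 269 FPKM after serum, against 149 to 171 FPKM in normal growth. ITGB8 made up 4.11 to 6.99% of that sum after serum, against 0.561 to 1.55% in normal growth.

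The fibronectin receptor chain ITGA5 fell, whereas the laminin receptor chains ITGA3 and ITGA7 rose. ITGA5, which with ITGB1 forms the fibronectin receptor (chromosome 12, 54789045 to 54813244), read 31.7 and 30.8 FPKM in G13R cells after serum, against 49.5 and 47.1 FPKM in normal growth. In GFP cells ITGA5 read 29.5 and 26.4 FPKM after serum, against 51.15 and 48.2 FPKM in normal growth. It fell in both, by 0.61 ± 0.10 on the log2 scale in G13R cells (adjusted p = 0.00423) and by 0.81 ± 0.10 in GFP cells (adjusted p = 3.89e-04). With ITGB8 and ITGB7, it was 1 of 3 members whose calls held in both kinds of cell under each alternative that kept the gene, and ITGB7 was removed by the filter at 5 FPKM.

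ITGB1 (chromosome 10, 33189247 to 33294720) read 242 and 249.7 FPKM in G13R cells after serum, against 311 and 301 FPKM in normal growth. In GFP cells ITGB1 read 262.5 and 285 FPKM after serum, against 356 and 320.4 FPKM in normal growth. The decreases were small, -0.32 ± 0.08 in G13R cells (adjusted p = 0.0289) and -0.30 ± 0.08 in GFP cells (adjusted p = 0.0166). The call in G13R cells was lost when any single G13R library was left out (-0.29 to -0.34, adjusted p = 0.0949 to 0.165). That in GFP cells was lost without GFP normal replicate 1 (-0.23, adjusted p = 0.141), without GFP serum replicate 1 (-0.24, adjusted p = 0.051) and under quantile normalization (-0.15, adjusted p = 0.111). Both calls were lost as well without the trend (limma adjusted p = 0.117 in G13R cells and 0.0782 in GFP cells). Without the filter on low values that in G13R cells was lost (limma adjusted p = 0.0682). With the compared libraries alone that in GFP cells was lost (limma adjusted p = 0.0622). The sign of ITGB1 stayed negative in all of these.

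ITGA3, a laminin receptor chain that pairs with ITGB1 (chromosome 17, 48133332 to 48167845), read 144.5 and 140.1 FPKM in G13R cells after serum, against 95.8 and 104 FPKM in normal growth. In GFP cells ITGA3 read 142 and 139.6 FPKM after serum, against 102 and 115 FPKM in normal growth. Serum and normal growth libraries were separate in both, with 0.51 ± 0.09 in G13R cells (adjusted p = 0.00548) and 0.38 ± 0.09 in GFP cells (adjusted p = 0.00899). The calls were lost without G13R normal replicate 1 or G13R serum replicate 1 in G13R cells (adjusted p = 0.0559 and 0.0549), and without GFP normal replicate 1 in GFP cells (0.29, adjusted p = 0.0854). ITGA7, the laminin receptor chain typical of muscle (chromosome 12, 56078352 to 56109827), read 11.1 and 9.94 FPKM in G13R cells after serum, against 5.14 and 6.58 FPKM in normal growth. In GFP cells ITGA7 read 10.8 and 12.7 FPKM after serum, against 5.79 and 4.95 FPKM in normal growth. It rose by a log2 fold change of 0.75 ± 0.16 in G13R cells (adjusted p = 0.0168) and 1.00 ± 0.16 in GFP cells (adjusted p = 0.00183). In G13R cells the call was lost without G13R normal replicate 1 (0.60), G13R serum replicate 1 (0.68) or G13R serum replicate 2 (0.83). It was lost there as well without the filter on low values (limma adjusted p = 0.055). Of the 5 muscle markers, MYH11, DES, MYOD1 and MYOG stayed under 1 FPKM in each library and CNN1 lay between 5.72 and 9.53 FPKM, and the sum of all 5 was 6.26 to 8.81 FPKM per library after serum, against 7.87 to 10.01 FPKM in normal growth. ITGA7 overlaps BLOC1S1, which averaged 92.2 FPKM, and METTL7B at 2.87 FPKM, and the share of reads between them was not tested.

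ITGA6, the third laminin receptor chain (chromosome 2, 173292082 to 173371181), was the member whose GFP serum libraries differed most in absolute level among the alpha chains. It read 56.5 and 56.6 FPKM in G13R cells after serum, against 44.3 and 43.0 FPKM in normal growth (0.37 ± 0.18, adjusted p = 0.207). In GFP cells ITGA6 read 55.6 and 33.5 FPKM after serum, against 40.1 and 40.0 FPKM in normal growth (0.11 ± 0.18, adjusted p = 0.686). GFP serum replicate 2 lay below normal growth and GFP serum replicate 1 above it. Without GFP serum replicate 2 the change passed in both kinds of cell, at 0.37 in G13R cells (adjusted p = 0.0125) and 0.46 in GFP cells (adjusted p = 0.0105). In G13R cells it passed as well without GFP serum replicate 1 (adjusted p = 0.0134) and with the compared libraries alone (adjusted p = 0.0183). In GFP cells it was -0.25 without GFP serum replicate 1 and did not pass, and the difference between the responses then did (0.62, adjusted p = 0.0318).

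ITGB7, which pairs with ITGA4 or ITGAE in lymphocyte adhesion (chromosome 12, 53585102 to 53601091), read 3.63 and 3.31 FPKM in G13R cells after serum, against 0.693 and 0.740 FPKM in normal growth. In GFP cells ITGB7 read 2.92 and 3.13 FPKM after serum, against 0.695 and 1.23 FPKM in normal growth. The groups were separate in both, with 1.38 ± 0.21 in G13R cells (adjusted p = 0.00314) and 1.05 ± 0.21 in GFP cells (adjusted p = 0.00439). The calls remained without the filter on low values. Its partners did not pass in either: ITGAE lay between 17.9 and 27.9 FPKM and ITGA4 between 2.16 and 4.23 FPKM. The leukocyte markers summed to 13.1 to 15.6 FPKM per library after serum, against 11.0 to 13.9 FPKM in normal growth, and CD68, which other cells also express, made up most of it. PTPRC, which defines leukocytes, did not exceed 0.814 FPKM. ITGAX, ITGA4, ITGB4, ITGA1, ITGA2, ITGAM and ITGAE were not called after serum in either kind of cell. ITGB4 in GFP cells (0.77) was called with the compared libraries alone (adjusted p = 0.0357), without G13R serum replicate 1 (adjusted p = 0.0239) and without G13R serum replicate 2 (adjusted p = 0.0218). It read 3.41 and 0.858 FPKM in G13R cells after serum, the largest ratio between the 2 libraries of a group among the tested members.

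Of the laminin alpha chains, LAMA5 rose and LAMA1 fell in both kinds of cell. LAMA5, the alpha chain found most widely in adult basement membranes (chromosome 20, 60883011 to 60942368), read 42.0 and 39.4 FPKM in G13R cells after serum, against 21.2 and 23.7 FPKM in normal growth. In GFP cells LAMA5 read 48.0 and 62.5 FPKM after serum, against 18.6 and 24.3 FPKM in normal growth. It rose by 0.83 ± 0.15 in G13R cells (adjusted p = 0.00821) and 1.32 ± 0.15 in GFP cells (adjusted p = 3.26e-04). The call in G13R cells was lost without G13R normal replicate 1 (0.75), G13R serum replicate 1 (0.79) or G13R serum replicate 2 (0.88), with adjusted p of 0.053 to 0.0717. LAMA5 overlaps ADRM1, which averaged 362 FPKM, and the share of reads between them was not tested.

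LAMA1, the alpha chain of the laminin of early embryonic basement membranes (chromosome 18, 6941743 to 7117813), read 9.85 and 8.82 FPKM in G13R cells after serum, against 15.3 and 18.1 FPKM in normal growth. In GFP cells LAMA1 read 8.41 and 5.98 FPKM after serum, against 15.2 and 14.0 FPKM in normal growth. It fell in both, by 0.77 ± 0.17 on the log2 scale in G13R cells (adjusted p = 0.0157) and by 0.94 ± 0.17 in GFP cells (adjusted p = 0.00261). The call in G13R cells was lost when any single G13R library was left out (-0.66 to -0.89). It was lost as well without the filter on low values (limma adjusted p = 0.0566). The ratio of LAMA5 to LAMA1, taken after the values were seen and so given with no test, was 4.27 and 4.47 in G13R cells after serum, against 1.38 and 1.31 in normal growth. In GFP cells it was 5.70 and 10.45 after serum, against 1.23 and 1.74 in normal growth. LAMA5 made up 79.6 to 90.4% of the summed laminin alpha chains after serum, against 54.6 to 62.8% in normal growth. That sum lacks LAMA2, which was not found.

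Among the beta and gamma chains, LAMB2 alone was called in both kinds of cell. LAMB2 (chromosome 3, 49158547 to 49170551), the beta chain of mature muscle and kidney basement membranes, read 61.6 and 52.3 FPKM in G13R cells after serum, against 32.5 and 25.7 FPKM in normal growth. In GFP cells LAMB2 read 60.3 and 79.3 FPKM after serum, against 51.5 and 42.5 FPKM in normal growth. It rose by 0.95 ± 0.16 in G13R cells (adjusted p = 0.00569) and 0.55 ± 0.16 in GFP cells (adjusted p = 0.0264). The call in G13R cells was lost without G13R normal replicate 2 (0.79, adjusted p = 0.0504) or G13R serum replicate 1 (0.83, adjusted p = 0.0583). The call in GFP cells was lost without GFP normal replicate 2 (0.42) or GFP serum replicate 2 (0.36). It was lost as well without the filter on low values (limma adjusted p = 0.0864) and without the trend (limma adjusted p = 0.0665). LAMB1, the other widely used beta chain, read 50.8 and 47.9 FPKM in G13R cells after serum, against 40.4 and 42.9 FPKM in normal growth (0.24 ± 0.13, adjusted p = 0.253). In GFP cells LAMB1 read 43.3 and 32.8 FPKM after serum, against 30.0 and 33.8 FPKM in normal growth, which overlapped (0.24 ± 0.13, adjusted p = 0.197). Without GFP serum replicate 2 that change in GFP cells was called (0.43, adjusted p = 0.0278).

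LAMB3 (chromosome 1, 209788220 to 209825811) read 202 and 188 FPKM in G13R cells after serum, against 217 and 225 FPKM in normal growth (-0.18 ± 0.08, adjusted p = 0.173). In GFP cells LAMB3 read 185.5 and 163 FPKM after serum, against 227 and 224 FPKM in normal growth. It fell there by 0.37 ± 0.08 on the log2 scale (adjusted p = 0.00792), a call lost without GFP normal replicate 1 (-0.36, adjusted p = 0.0556) and under quantile normalization (-0.20, adjusted p = 0.0896). LAMC1, the gamma chain of most laminins, and LAMC3 did not pass in either kind of cell. The estimates for LAMC1 were 0.14 ± 0.11 in G13R cells and 0.06 ± 0.11 in GFP cells.

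**Figure D3:**
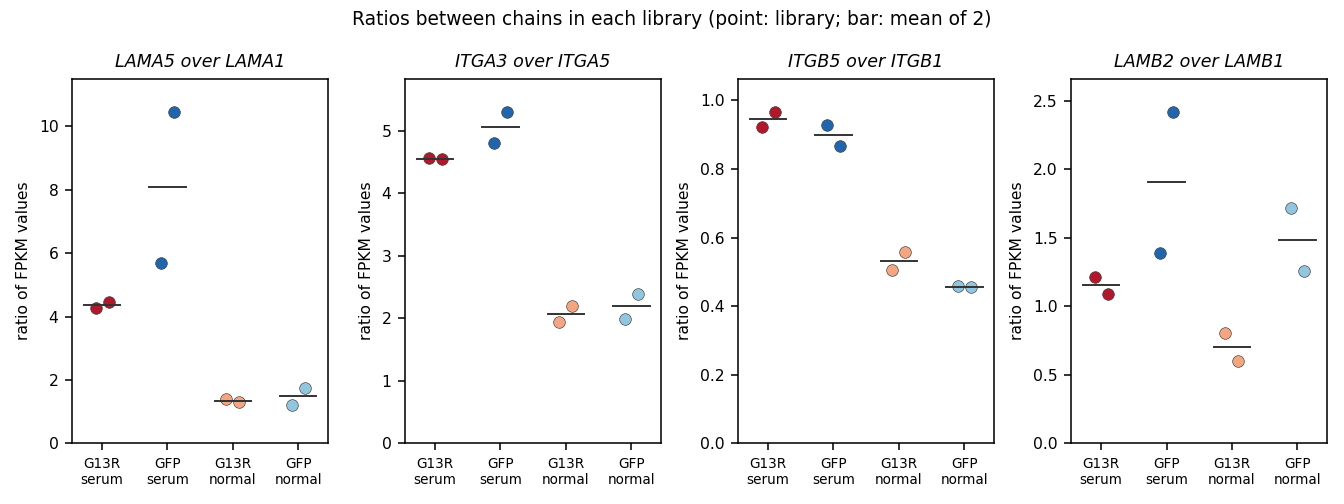
Ratios of FPKM values between pairs of chains in each library, with 1 point per library and a bar at the mean of the 2 libraries of a group. The ratios of LAMA5 to LAMA1, ITGA3 to ITGA5 and ITGB5 to ITGB1 are higher in all serum libraries than in all normal growth libraries, whereas those of LAMB2 to LAMB1 overlap between conditions.

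The plot of these ratios is a description of chains picked after their levels were seen. ITGA3 stood at 4.54 to 5.30 times the level of ITGA5 in the serum libraries, against 1.94 to 2.39 times in normal growth. ITGB5 stood at 0.867 to 0.966 of the level of ITGB1 after serum, against 0.455 to 0.558 in normal growth. A ratio shows that the chains of a pair changed unequally and does not show which receptors were assembled.

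G13R cells were compared with GFP cells to find members whose level differed with the actin mutant. After serum 0 of the 24 members were called, against 0.823% of all genes (0.331% higher and 0.492% lower). In normal growth 0 were called, against 0.0462% of all genes (0.0385% higher and 0.00769% lower). At an unadjusted p under 0.05 limma gave 7 of the 24 members after serum and 7 of 24 in normal growth. Over all 12996 genes tested these counts were 2705 and 1968. When the difference was averaged over both conditions, which sets 4 libraries against 4, 2 members were called higher and 1 lower, and 3.49% of all genes were called (0.8% higher and 2.69% lower). These were the collagen receptor chain ITGA2 and the complement receptor chain ITGAM, both higher in G13R cells, and the laminin chain LAMC1, lower in G13R cells. The median log2 difference of the tested members was -0.02, and that of all genes was -0.05. All 3 calls depended on single libraries, as given beside each. The keratin genes KRT8 and KRT18 were called lower in G13R cells as well (-0.34 ± 0.08 and -0.52 ± 0.07 on average). The other epithelial markers in the fit, EPCAM (-0.05 ± 0.15), CDH1 (-0.17 ± 0.30) and KRT5 (-0.06 ± 0.18), were not called, and the part of these markers in the result was not tested.

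ITGA2, a collagen receptor chain that pairs with ITGB1 (chromosome 5, 52285156 to 52390609), read 19.9 and 19.6 FPKM in G13R cells after serum, against 14.0 and 9.94 FPKM in GFP cells after serum. In normal growth ITGA2 read 17.2 and 17.4 FPKM in G13R cells, against 12.8 and 11.3 FPKM in GFP cells. All 4 G13R libraries lay above all 4 GFP libraries. The averaged log2 difference was 0.59 ± 0.11 (adjusted p = 0.0258), made up of 0.70 ± 0.15 after serum (adjusted p = 0.0604) and 0.49 ± 0.15 in normal growth (adjusted p = 0.195). The averaged call was lost when any G13R library or either GFP normal library was left out (0.55 to 0.63, adjusted p = 0.06 to 0.133), and it was kept with either GFP serum library left out. The difference after serum was called with the filter at 5 FPKM (adjusted p = 0.0463), with the replicate block (adjusted p = 0.0462) and without GFP serum replicate 1 (0.92, adjusted p = 0.00444).

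ITGAM, which with ITGB2 forms the complement receptor of myeloid cells (chromosome 16, 31271311 to 31344190), read 4.82 and 3.35 FPKM in G13R cells after serum, against 1.33 and 2.03 FPKM in GFP cells after serum. In normal growth it read 5.38 and 3.92 FPKM in G13R cells, against 1.70 and 1.64 FPKM in GFP cells. Again the 4 G13R libraries lay above the 4 GFP libraries, with an averaged log2 difference of 0.99 ± 0.16 (adjusted p = 0.0193). The call was lost without G13R normal replicate 1 (0.90), G13R normal replicate 2 (1.09), G13R serum replicate 1 (0.89), GFP normal replicate 1 (1.00) or GFP normal replicate 2 (0.99), with adjusted p of 0.0502 to 0.108. ITGB2 averaged 0.688 and 0.744 FPKM in G13R cells after serum and in normal growth, against 0.630 and 0.672 FPKM in GFP cells. The leukocyte marker sum was 13.1 and 14.6 FPKM in G13R cells after serum, against 13.1 and 15.6 FPKM in GFP cells after serum. In normal growth that sum was 11.0 and 12.3 FPKM in G13R cells, against 11.4 and 13.9 FPKM in GFP cells, so it did not separate the 2 kinds of cell.

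**Figure D4:**
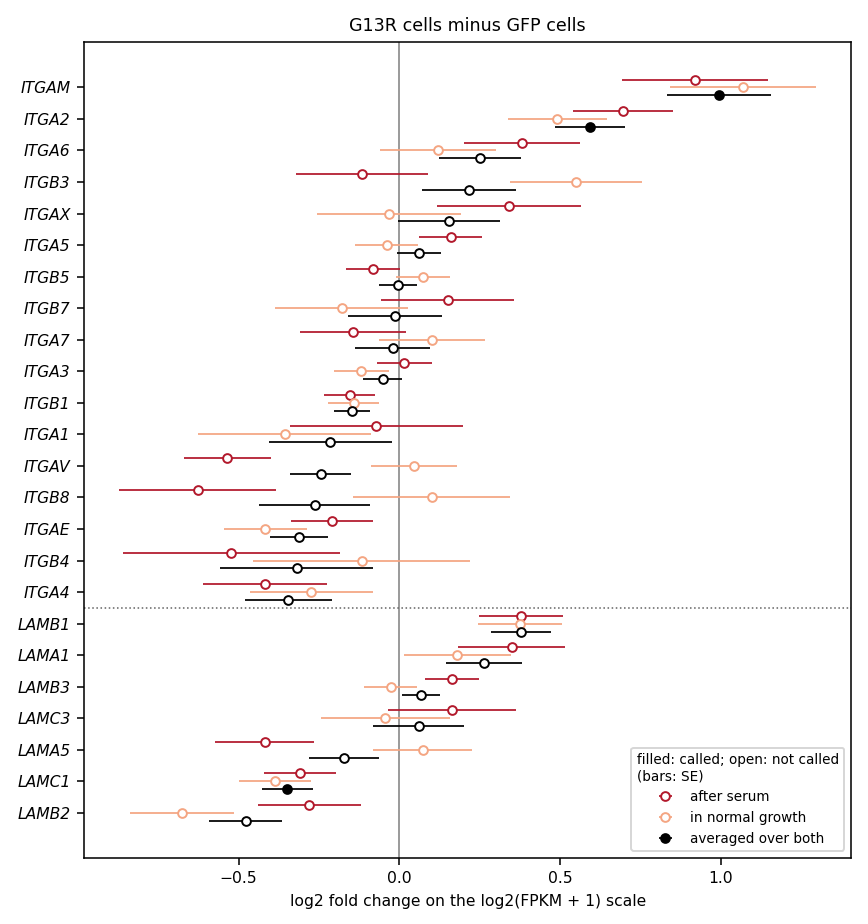
Log2 difference of G13R over GFP cells for the 24 tested members, after serum in red, in normal growth in light orange and averaged over both conditions in black. Bars are SE, and filled points are called genes. ITGAM (0.99) and ITGA2 (0.59) lie to the right and LAMC1 (-0.35) to the left among the averaged values, and no value within a single condition is filled.

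LAMC1 (chromosome 1, 182992597 to 183114727) read 52.5 and 63.0 FPKM in G13R cells after serum, against 66.9 and 76.4 FPKM in GFP cells after serum. In normal growth it read 53.3 and 50.8 FPKM in G13R cells, against 65.0 and 72.0 FPKM in GFP cells. All G13R libraries lay below all GFP libraries, and the averaged log2 difference was -0.35 ± 0.08 (adjusted p = 0.0457). The call was the least stable of the 3. It was lost in 11 of 19 alternatives, among them both scaling alternatives (-0.26 under quantile normalization, adjusted p = 0.105, and -0.29 under median-ratio scaling, adjusted p = 0.08). It was also lost when any 1 library other than GFP serum replicate 1 was left out (-0.28 to -0.41, adjusted p = 0.073 to 0.189).

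The beta chains LAMB1 and LAMB2 came next. LAMB1 differed by 0.38 ± 0.09 on average (adjusted p = 0.0552) and LAMB2 by -0.48 ± 0.11 (adjusted p = 0.0513). LAMB1 was called under quantile normalization (0.44, adjusted p = 0.0493), under median-ratio scaling (adjusted p = 0.0488), with the filter at 5 FPKM (adjusted p = 0.0413) and without GFP serum replicate 1 (0.48, adjusted p = 0.00498). LAMB2 was called with the filter at 5 FPKM (adjusted p = 0.0369), with the replicate block (adjusted p = 0.0478), without GFP serum replicate 1 (-0.58, adjusted p = 0.00974) and with genes that had such zeros left out of the fit (adjusted p = 0.0455 to 0.0491). LAMB1 overlaps DLD, which averaged 36.0 FPKM, and the share of reads between them was not tested. ITGB1, ITGB5, ITGA3 and ITGA5, the other abundant integrin chains, differed by -0.15 ± 0.06, 0.00 ± 0.06, -0.05 ± 0.06 and 0.06 ± 0.07 on average and were not called. Those estimates bound the differences of these chains only to within their errors.

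GFP serum replicate 1 decided part of this comparison. When it was left out 5 members differed between G13R and GFP cells after serum, 3 higher in G13R cells (ITGA2, ITGA6 and LAMB1) and 2 lower (ITGAV and LAMA5), where GFP cells are then represented by replicate 2, the library that stood apart. The lone library is assumed to vary like the other groups in that fit. The total over all genes rose to 1620 in it, against 107 with all libraries. Without GFP serum replicate 2, 0 members were called after serum and 9 of all genes. In the averaged comparison the number of members called also depended on which GFP serum library was left out, as did the number over all genes.

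Genes that work with these receptors were read from 3 lists. Of 46 tested integrin adaptor and signalling genes (48 listed), 13 rose and 1 fell after serum in G13R cells, and 11 rose and 5 fell in GFP cells. That is 30.4% called in G13R cells, against 12.9% of all genes, and 34.8% in GFP cells, against 30.7% of all genes, which is near the background. FLNA, which encodes the actin crosslinker filamin A, was listed at 0 in G13R serum replicate 2 and GFP normal replicate 2 and at 374 to 478 FPKM in the other 6 libraries, so its test is not informative. The median log2 fold change was 0.21 in G13R cells and 0.07 in GFP cells. The largest changes included CD9, a tetraspanin that associates with ITGB1 (1.46 ± 0.10 in G13R cells and 1.52 ± 0.10 in GFP cells), and the caveolin gene CAV1 (1.31 ± 0.14 and 1.21 ± 0.14). The focal adhesion gene TGFB1I1 rose by 1.76 ± 0.21 in G13R cells and 0.83 ± 0.21 in GFP cells, and TENC1, which encodes a tensin, by 1.14 ± 0.20 and 0.96 ± 0.20. LIMS2, whose protein partners the kinase ILK, rose by 0.87 ± 0.18 and 1.54 ± 0.18. Another tensin gene, TNS4, stood at 1.16 ± 0.34 in G13R cells (adjusted p = 0.0503) and rose in GFP cells (2.07 ± 0.34, adjusted p = 0.0018). CAV1 was also lower in G13R cells than in GFP cells, by a log2 difference of -0.87 ± 0.14 after serum (adjusted p = 0.0397) and -0.92 ± 0.10 on average (adjusted p = 0.00534). The averaged comparison also called ITGB1BP1, which encodes a protein that binds the ITGB1 tail, lower (-0.33 ± 0.07, adjusted p = 0.036), and LIMS1 higher (0.27 ± 0.06, adjusted p = 0.044). Between G13R and GFP cells 2.17% of this list was called after serum and 6.52% on average, against 0.823% and 3.49% of all genes.

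Of 20 tested genes for other basement membrane components and laminin receptors (28 listed), 4 rose and 0 fell after serum in G13R cells, and 7 rose and 2 fell in GFP cells. The share called was 20% in G13R cells, against 12.9% of all genes, and 45% in GFP cells, against 30.7% of all genes. SMOC1, a secreted calcium-binding protein of basement membranes, averaged 7.90 ± 1.11 FPKM in G13R cells after serum, against 1.59 ± 0.0859 FPKM in normal growth (SD, n = 2 each; log2 fold change 1.78 ± 0.25, limma adjusted p = 0.00239). In GFP cells SMOC1 averaged 19.3 ± 8.20 FPKM after serum, against 0.967 ± 0.0478 FPKM in normal growth (3.31 ± 0.25, limma adjusted p = 3.74e-05). BCAM, a receptor for the LAMA5 chain, rose by 1.01 ± 0.18 in G13R cells and 1.52 ± 0.18 in GFP cells. PXDN, which crosslinks collagen IV, rose by 0.85 ± 0.14 and 1.01 ± 0.14, and DAG1, the dystroglycan receptor of laminin, by 0.52 ± 0.11 in each. BCAM and DAG1 were lower in G13R cells than in GFP cells on average (-0.93 ± 0.13, adjusted p = 0.0127, and -0.37 ± 0.08, adjusted p = 0.0384), as was SPARC (-0.47 ± 0.08, adjusted p = 0.023). BCAM was also called lower after serum (-1.19 ± 0.18, adjusted p = 0.0376). Between G13R and GFP cells 5% of this list was called after serum and 15% on average, against 0.823% and 3.49% of all genes.

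Of 22 tested genes for other integrin ligands (34 listed), 6 rose and 3 fell after serum in G13R cells, and 11 rose and 3 fell in GFP cells. The share called was 40.9% in G13R cells, against 12.9% of all genes, and 63.6% in GFP cells, against 30.7% of all genes. THBS1, an adhesive glycoprotein, rose by 0.98 ± 0.09 in G13R cells and 1.15 ± 0.09 in GFP cells, and CYR61 and CTGF also rose in both. TGFBI, an integrin ligand of the matrix, fell in both (-1.62 ± 0.13 and -0.84 ± 0.13). EDIL3, a ligand of ITGAV receptors, stood at 0.51 ± 0.29 in G13R cells (adjusted p = 0.264) and rose in GFP cells (1.86 ± 0.29, adjusted p = 0.00133). FN1, which encodes fibronectin and was singled out after its values were seen as the ligand of the ITGA5 receptor, rose while ITGA5 fell. It averaged 139 ± 11.5 FPKM in G13R cells after serum, against 73.8 ± 3.09 FPKM in normal growth, and 148 ± 18.2 FPKM in GFP cells after serum, against 96.1 ± 7.77 FPKM in normal growth (SD, n = 2 each). Its log2 fold changes were 0.91 ± 0.11 (adjusted p = 0.00101) and 0.61 ± 0.11 (adjusted p = 0.00245). Between G13R and GFP cells on average, COL6A3 was higher in G13R cells (0.46 ± 0.07, adjusted p = 0.0135). The CCN gene NOV (-0.75 ± 0.14, adjusted p = 0.0268), the fibrillin gene FBN2 (-0.57 ± 0.09, adjusted p = 0.0195) and CYR61 (-0.41 ± 0.08, adjusted p = 0.0296) were lower. After serum COL6A3 was also called higher (0.54 ± 0.10, limma adjusted p = 0.0443) and FBN2 lower (-0.71 ± 0.13, limma adjusted p = 0.0487). Of this list 9.09% was called after serum and 18.2% on average, against 0.823% and 3.49% of all genes.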

How the data were processed

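The authors deposited 1 table of FPKM per gene for 8 libraries, 2 in each of 4 groups. TopHat2 2.0.13 and Cufflinks 2.2.1 are named with the builds hg19 and BDGP5, per the submitters' processing notes. No source used here names the annotation. FPKM keep no counts, so the depth is unknown: among low values only 14.6 to 17.0% of gene pairs lay at the commonest ratio between libraries, and reads were not recovered. Reads of overlapping genes cannot be told apart. Table starts count from 0, so 1 was added.

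The test was limma 3.58.1 (R 4.3.3) on log2(FPKM + 1), with an intensity trend, 1 mean per group, all 8 libraries in the fit, 4 residual degrees of freedom and Benjamini-Hochberg adjustment over the 12996 genes that reached 1 FPKM in 2 or more libraries. This scale understates changes of low genes. A run of the procedure on simulated data covered the serum comparison in GFP cells alone, so it cannot speak for the other comparisons. The 6 comparisons were G13R against GFP cells (after serum, in normal growth, averaged), serum against normal growth in each, and the difference of these responses. All listed genes were accounted for. Full values went to called members and to the 6 integrin and 4 laminin genes of highest mean, and companion lists gave up to 4 called genes of largest change per comparison. Members, lists and tests were chosen with earlier results of these data known. Alternatives were quantile normalization, median-ratio scaling, a pseudocount of 0.1, a filter at 5 FPKM or none, only the compared libraries, no trend, the replicate number as a block, leaving out each library and, chosen after seeing the data, leaving out genes at 0 in a library though high in another. Tests planned in case the table held counts were not run. Plots were drawn with matplotlib 3.10.9.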

Additional observations from a re-analysis of the deposited data

How the results depend on the processing

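Of the 26 results in which a member was called, 11 kept their call under each alternative that kept the gene (ITGB7, ITGB3 and ITGAM were removed by the filter at 5 FPKM), and the sign changed in 0. The 11 were ITGB8, ITGB7 and ITGA5 in both kinds of cell and ITGA7, ITGB3, ITGB5, LAMA1 and LAMA5 in GFP cells. The 3 calls between G13R and GFP cells were each lost under some alternative.

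The count of members called after serum was 4 to 11 in G13R cells (10 with all libraries) and 9 to 14 in GFP cells (13 with all libraries) when 1 library was left out. In G13R cells it was 4 without G13R serum replicate 1, 5 without G13R serum replicate 2, 5 without G13R normal replicate 1 and 7 without G13R normal replicate 2. Between G13R and GFP cells leaving out 1 library gave 0 to 5 members after serum, 0 in normal growth and 0 to 8 on average, and 0 to 2 for the difference of the serum responses. The cause was not tested, beyond the fewer libraries in each fit. The averaged comparison gave 0 members without the filter on low values and 0 without the trend, against 3. The comparison after serum gave 1 member, ITGA2, with the filter at 5 FPKM.

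The replicate numbers are shared between groups by label alone. The differences between replicates 1 and 2 correlated between groups with r from 0.017 to 0.121 across genes, so the numbers were not taken as pairs. With the replicate block the counts were 1 after serum, 0 in normal growth, 4 on average, 10 and 13 for serum in G13R and GFP cells, and 0 for the difference. FPKM give no depth, so no limit from depth was computed, and the alternative planned for counts was not run. Leaving out genes at 0 in a library and at least 100, 10 or 2 FPKM in another, chosen after seeing the data, lost no call of a member. No other setting moved a count of called members by over 1.5 times.

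Counts over all genes moved by over 1.5 times more often. G13R against GFP after serum, 107 genes, gave 263 with the filter at 5 FPKM, 4 without a filter, 6 without the trend, 6 with the compared libraries alone, 180 under quantile normalization, 403 with the replicate block and 5 to 1620 with 1 library left out. In normal growth, 6 genes, these were 14 with that filter, 14 with the compared libraries alone, 12 under quantile normalization, 83 with the block, 11 and 13 with genes at 0 in a library and at least 10 or 2 FPKM in another left out, and 4 to 109. The averaged comparison, 454 genes, gave 5 without a filter, 7 without the trend, 285 and 282 under quantile and median-ratio scaling, 719 with the block and 14 to 1669. Serum in G13R cells, 1675 genes, gave 932 without a filter, 1071 without the trend and 413 to 655 without a G13R library. Serum in GFP cells, 3985 genes, gave 2155 to 2527 without a GFP normal library or GFP serum replicate 2. The difference of responses, 0 genes, gave 1 with the pseudocount of 0.1, 2 under quantile normalization and at most 486 with 1 library left out.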
